A study of Mus musculus with 12 samples.

Results

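The comparison described here is of IF + NaIO3 with IF + PBS, the fasted mice that received sodium iodate and the fasted mice that received only the carrier solution. It takes 6 of the 12 RNA-seq libraries, 3 per group, chosen by their sample labels, and asks what NaIO3 still changed in the eyes of mice on intermittent fasting (IF). All 6 libraries came from male wild-type C57BL/6J mice that were 8 weeks old when an alternate-day fasting schedule began. After 12 weeks on that schedule the mice were given 1 intraperitoneal injection of 25 mg/kg NaIO3 or of PBS, and tissue was taken 7 days later. The other 6 libraries came from mice fed ad libitum (AL) and injected in the same way, and they are used only where the response on the other diet is set beside the values. Of 21930 genes in the deposited count table, 15305 had enough reads in these 6 libraries to be tested.

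NaIO3 is an oxidant that injures the retinal pigment epithelium (RPE), the pigmented sheet behind the photoreceptors, and loss of photoreceptors follows that injury. The RPE regenerates the visual chromophore for rods and cones in the visual cycle, takes up shed outer segment tips, transports nutrients and ions, and contains melanin. The injury is used as a model of age-related macular degeneration, and Müller glia and microglia are known to become reactive in it. Because the injection is systemic and a whole eye cup was sequenced, direct effects on the RPE cannot be told apart from later effects on its neighbours.

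The tissue was labelled as RPE with choroid and sclera, while the methods speak of eye cups. The libraries were rich in neural retina: Gnat1, the alpha subunit of rod transducin, had 3494 ± 192 FPKM (fragments per kilobase of transcript, scaled to the depth of the library, SD, n = 3) in IF + PBS, against 64.8 ± 2.51 FPKM for Rpe65, the isomerase of the visual cycle. Totals were between 29468444 and 38849576 counts. A count of 3, the most that a count of 0 allows for, equalled between 0.0772 and 0.102 CPM (counts scaled to library size, here from the totals alone), which covers counting error only. All other CPM values were scaled with the trimmed mean of M-values (TMM) as well. IF + PBS replicate 1 stood apart from the other controls, with a chi-square of the counts per gene of 49.6 and 32.5 against them, where replicates 2 and 3 gave 16.1 and pairs of IF + NaIO3 libraries gave at most 29.6, and the sample quality weights of limma gave it 0.48 against 0.80 and 2.47. Results are therefore given with and without it. The fold changes also followed base composition, as described after the counts of genes.

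With all 6 libraries, 0 of 15305 genes (0%) passed edgeR's quasi-likelihood test at a Benjamini-Hochberg adjusted p under 0.05 with a fold change of at least 1.5, and the lowest adjusted p was 0.0939. At an unadjusted p under 0.05, 1297 genes were higher (8.47%) and 1029 were lower (6.72%) in IF + NaIO3. All 3 IF + NaIO3 libraries lay above all 3 IF + PBS libraries for 10.2% of the genes and below them for 10.7%. The lowest p-values belonged to Nr4a1, Egr1 and Fos, which are immediate early genes, to the mitochondrial gene mt-Nd4l and to the keratin gene Krt7. DESeq2, with its own filter on low counts, called 80 genes on the same libraries, 48 higher and 32 lower, of which 40 were also called by edgeR without IF + PBS replicate 1.

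Without IF + PBS replicate 1, edgeR called 197 of 15522 genes, 155 higher (0.999%) and 42 lower (0.271%). All 197 had the same direction with the 6 libraries, and 160 had an unadjusted p under 0.05 there. For 113 of them the 3 + 3 libraries did not overlap (10.2% of all genes lay above and 10.7% below in this way). The genes were chosen on these same libraries apart from replicate 1, so such values describe them and are no separate support. Leaving out any other single library gave between 0 and 11 calls. The 197 calls also rested on further libraries, since leaving out IF + NaIO3 replicate 2 as well left 4 genes, Zfp292, Hipk1, Zfp708 and mt-Nd4l, and leaving out IF + NaIO3 replicate 1 as well gave 417.

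**Figure D1:**
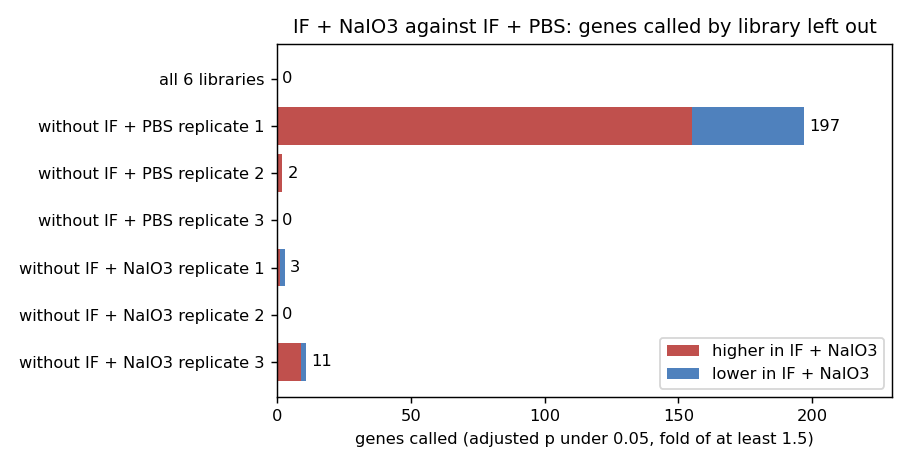
Number of genes called by edgeR (x axis, adjusted p under 0.05 and fold change of at least 1.5) with all 6 libraries and with each library left out in turn (rows), split into genes higher (red) and lower (blue) in IF + NaIO3. The bar without IF + PBS replicate 1 stands at 197 genes, and the other bars are between 0 and 11.

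Genes with a low GC content were higher and genes with a high GC content were lower in IF + NaIO3. Across 15184 genes with a known transcript, the Spearman correlation of the log2 fold change with GC content was -0.51, a description across genes that share the same 6 libraries. The median log2 fold change went from 0.27 in the decile of genes with the lowest GC content to -0.19 in the decile with the highest. In the lowest decile 32.7% of the genes were higher at an unadjusted p under 0.05, and in the highest decile 20.5% were lower. Each library's own trend with GC content, relative to the mean of the 6, was 0.27 ± 0.29 in IF + PBS and -0.30 ± 0.17 in IF + NaIO3 (SD, n = 3), without overlap between the groups (p = 0.1, exact two-sided permutation test, the smallest p that 3 against 3 allow). When this trend was removed within each library, a correction chosen after the trend had been seen, 712 genes were higher (4.69%) and 590 were lower (3.89%) at an unadjusted p under 0.05. With that correction edgeR called 1 gene, Nr4a1, on the 6 libraries, and 6 genes without IF + PBS replicate 1, which were Nr4a1, Egr1, Fos, Jag1, Zfp708 and Hipk1. Whether the trend came from the tissue or from the preparation of the libraries was not tested. Corrected values are given in the text for some of the groups and genes, and the corrected median of each list is in the plot of list medians.

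**Figure D2:**
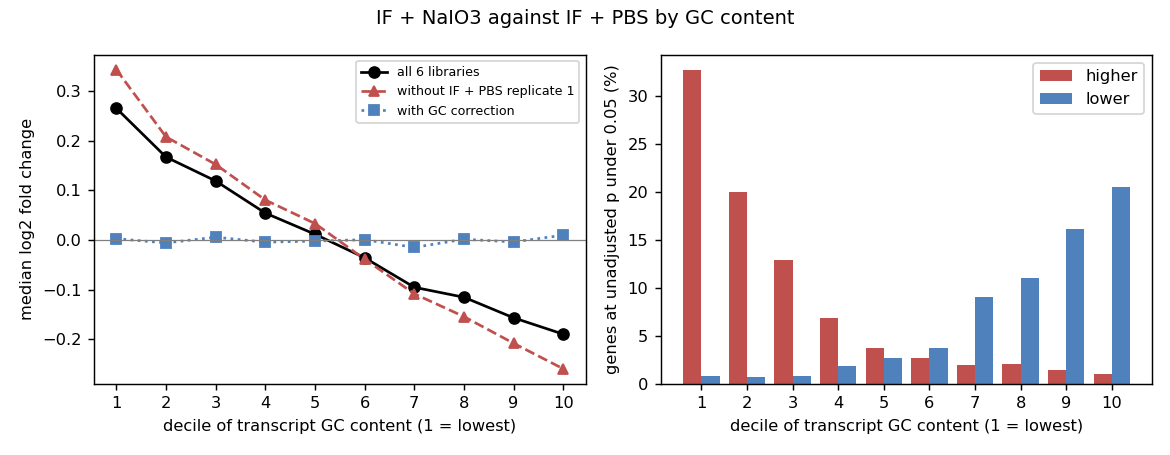
Left, median log2 fold change of IF + NaIO3 over IF + PBS (y axis) in deciles of the tested genes by transcript GC content (x axis, 1 is the lowest), with all 6 libraries (black), without IF + PBS replicate 1 (red) and with the GC trend removed (blue). Right, percentage of genes in each decile at an unadjusted p under 0.05, higher (red) or lower (blue) in IF + NaIO3, which went from 32.7% higher in the lowest decile to 20.5% lower in the highest.

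The immediate early genes included the single genes with the lowest p-values on the 6 libraries, Nr4a1, Egr1 and Fos. They are transcribed within minutes of a stimulus without new protein synthesis, and most encode transcription factors or phosphatases. Of 24 tested, 19 were higher, 9 of them at an unadjusted p under 0.05 (8.47% of all genes were), and 2 were lower at that level. Their median log2 fold change was 0.33, against 0.00 over all genes, and it was 0.25 without IF + PBS replicate 1 and 0.35 with the GC correction.

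Egr1, a zinc finger transcription factor, had 30.3, 21.7 and 19.1 CPM in the 3 IF + PBS libraries and 53.7, 98.2 and 90.8 CPM in the 3 IF + NaIO3 libraries. The lowest treated library was well above the highest control. Its fold change was 3.42 (log2 1.77 ± 0.23, SE), with an adjusted p of 0.0939 from edgeR on the 6 libraries and of 0.0148 without IF + PBS replicate 1. Nr4a1, an orphan nuclear receptor, had 32.2, 34.2 and 27.9 CPM in IF + PBS and 52.8, 58.5 and 61.9 CPM in IF + NaIO3. These groups did not overlap either, and the spread within each was small, with means of 31.4 ± 3.24 and 57.8 ± 4.60 CPM (SD, n = 3). The log2 fold change of Nr4a1 was 0.88 ± 0.11 (SE), with edgeR adjusted p values of 0.0939 and, without IF + PBS replicate 1, 0.0323. Fos, a subunit of the AP-1 transcription factor, had 24.2, 24.1 and 19.4 CPM in IF + PBS and 38.4, 43.9 and 43.8 CPM in IF + NaIO3. Its log2 fold change was 0.90 ± 0.12 (SE), with an edgeR adjusted p of 0.0944 on the 6 libraries and 0.0323 without IF + PBS replicate 1. After the GC correction Nr4a1 had a log2 fold change of 1.00 and an edgeR adjusted p of 0.0471, while Egr1 (1.93, adjusted p = 0.103) and Fos (0.96, adjusted p = 0.0711) passed with that correction once IF + PBS replicate 1 was left out.

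**Figure D3:**
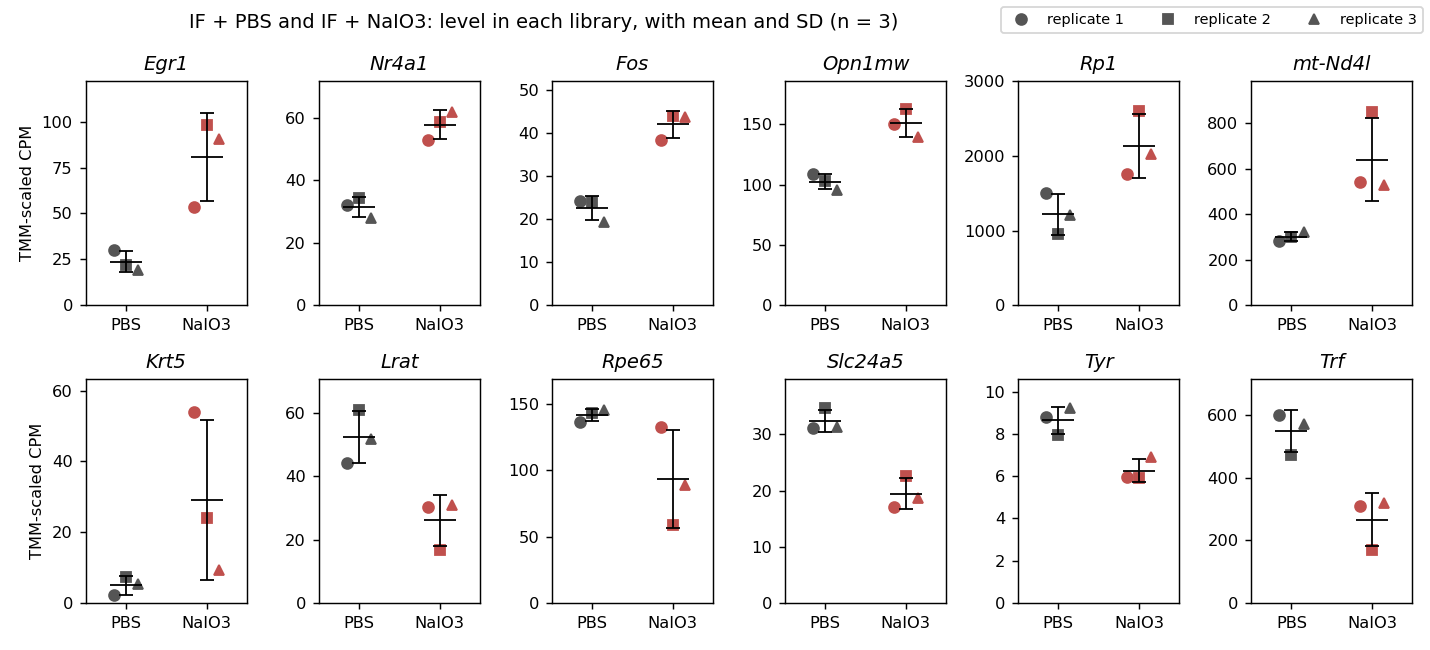
Level of 12 genes in each library (y axis, TMM-scaled CPM, starting at 0) in IF + PBS (grey) and IF + NaIO3 (red), where marker shape gives the replicate number and bars give the mean and SD of 3 libraries. For each gene shown the 2 groups do not overlap, and the spread of Egr1, Krt5 and Rpe65 is wider in IF + NaIO3 than in IF + PBS.

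Other members followed with smaller or less even differences. Klf4, a Krüppel-like factor, had 2.34, 2.47 and 3.25 CPM in IF + PBS and 5.44, 6.53 and 4.13 CPM in IF + NaIO3 (log2 1.00 ± 0.26, SE). Egr3 was between 1.28 and 1.43 CPM in the controls and between 2.01 and 3.42 CPM after NaIO3 (log2 0.99 ± 0.33, SE). Fosb, another AP-1 subunit, had a log2 difference of 0.68, and Dusp1, a phosphatase that switches off MAP kinases, one of 0.45, both without overlap between the groups. Junb (0.43) had one control library at 27.4 CPM, level with the lowest treated library. Npas4, which is induced by activity in neurons, was lower, with between 9.99 and 11.4 CPM in IF + PBS and between 5.45 and 6.82 CPM in IF + NaIO3 (log2 -0.81 ± 0.18, SE). None of these 6 passed the adjusted threshold, with or without IF + PBS replicate 1.

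Because Nr4a1 and Fos differed together, their promoters are shown for the letters TGACG, which is one side of the cAMP response element, a motif bound by CREB. The sequences are RefSeq's for GRCm38.p6 and run from 250 bases before the transcription start to 50 bases after it, 5′ to 3′ on the gene's strand. Capitals mark TGACG or its reverse complement CGTCA. The Fos window is chr12:85473640-85473939 on the plus strand and the Nr4a1 window is chr15:101266596-101266895 on the plus strand, where the gene itself spans chr15:101254269-101274795.
Fos: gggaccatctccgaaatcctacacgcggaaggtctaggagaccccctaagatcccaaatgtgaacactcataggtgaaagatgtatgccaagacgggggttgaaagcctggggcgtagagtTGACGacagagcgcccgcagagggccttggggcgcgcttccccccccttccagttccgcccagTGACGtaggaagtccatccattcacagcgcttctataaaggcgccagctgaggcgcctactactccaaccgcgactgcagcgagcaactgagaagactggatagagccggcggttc
Nr4a1: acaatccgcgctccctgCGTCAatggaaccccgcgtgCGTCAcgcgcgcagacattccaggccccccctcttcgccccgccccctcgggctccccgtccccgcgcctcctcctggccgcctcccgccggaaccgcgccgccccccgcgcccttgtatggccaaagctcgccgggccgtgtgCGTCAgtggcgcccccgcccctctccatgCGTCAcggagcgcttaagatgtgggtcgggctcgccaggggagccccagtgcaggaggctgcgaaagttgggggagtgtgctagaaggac
Fos held 2 matches, the nearer one 66 bases before the start, and Nr4a1 held 4, the nearest one 40 bases before it. Of 20 immediate early genes with an entry, 12 held TGACG or CGTCA (60.0%), against 21.0% of 27025 promoters of the same length, and the whole element, TGACG followed directly by TCA, which contains both, was in 2 of the 20 and in 1.88% of all promoters. Npas4, which was lower in IF + NaIO3, was among the 12 with a match, while Egr1 and Egr3 had no entry. The matches describe letters and not sites that are bound.

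Genes of the RPE and its visual cycle were lower in IF + NaIO3. Of 20 tested, 16 were lower and 12 of these had an unadjusted p under 0.05 (6.72% of all genes were lower at that level), while 0 were higher at it. In 10 of the 20 all IF + NaIO3 libraries lay below all IF + PBS libraries, against 10.7% of all genes. Over the list the median difference was -0.51 (log2), and it was -0.56 without IF + PBS replicate 1 and -0.42 with the GC correction, where 10 members were lower at an unadjusted p under 0.05 (3.89% of all genes were). Lrat and Slc6a13 were called lower by edgeR without IF + PBS replicate 1. In tissue with several cell types, fewer RPE cells and less of these RNAs per RPE cell cannot be told apart.

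The enzymes that make 11-cis retinal showed the size of the difference. Lrat (chr3:82892579-82903973, GRCm38), which esterifies retinol, had 44.3, 60.9 and 51.8 CPM in IF + PBS and 30.4, 16.8 and 31.0 CPM in IF + NaIO3, so that every treated library was below every control. Its level was 2.01-fold lower (log2 -1.01 ± 0.21, SE), with an edgeR adjusted p of 0.211 on the 6 libraries and 0.0364 without IF + PBS replicate 1. Rpe65 (chr3:159599175-159625321), which isomerises the retinyl esters, was even in the controls, at 137, 144 and 145 CPM, and uneven after NaIO3, at 133, 58.6 and 88.9 CPM. IF + NaIO3 replicate 1 was nearly at the control level, and the log2 fold change was -0.60 ± 0.23 (SE, edgeR adjusted p = 0.273). Rdh5, a retinol dehydrogenase that completes the cycle, had 124, 138 and 167 CPM in IF + PBS and 103, 51.5 and 84.5 CPM in IF + NaIO3 (log2 -0.84 ± 0.22, SE), and it overlaps Bloc1s1. Rgr, an opsin of RPE and Müller cells, had 637, 610 and 652 CPM in the controls and 448, 223 and 392 CPM after NaIO3, without overlap (log2 -0.83 ± 0.20, SE). In each of these 4 genes IF + NaIO3 replicate 2 was the lowest library.

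Other RPE members varied in how far they took part. Slc6a13, a GABA transporter, was between 27.8 and 40.6 CPM in IF + PBS and between 18.5 and 27.3 CPM in IF + NaIO3 (edgeR adjusted p = 0.049 without IF + PBS replicate 1). Rlbp1, the retinal binding protein that RPE and Müller glia both make, was 505, 496 and 541 CPM in the controls and 498, 471 and 457 CPM after NaIO3, a log2 difference of -0.11 ± 0.09 (SE). Best1, a chloride channel that marks the RPE, was counted at only 0.276 to 0.682 CPM over the 6 libraries, too low to carry a difference. The summed level of the 20 genes was between 3352 and 3858 CPM in IF + PBS and 2991, 2047 and 2729 CPM in IF + NaIO3.

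Genes of melanin synthesis were lower as well. Of 14 tested, 13 were lower, 6 of them at an unadjusted p under 0.05 (6.72% of all genes were), and 0 were higher at that level. Their median log2 fold change was -0.38, and -0.43 both without IF + PBS replicate 1 and with the GC correction, where 7 were lower at an unadjusted p under 0.05 (3.89% of all genes were). The summed levels overlapped, at 311, 274 and 410 CPM in IF + PBS and 282, 200 and 247 CPM in IF + NaIO3. Slc24a5 (chr2:125068124-125088677, GRCm38, overlapping Myef2), an ion exchanger of the melanosome, had 31.1, 34.7 and 31.4 CPM in IF + PBS and 17.2, 22.6 and 18.7 CPM in IF + NaIO3. The replicates of each group lay close together, and the level was 1.66-fold lower (log2 -0.73 ± 0.13, SE), with an edgeR adjusted p of 0.211 on the 6 libraries and 0.0333 without IF + PBS replicate 1. Tyr, the rate-limiting enzyme of melanin synthesis, had 8.80, 7.94 and 9.21 CPM in the controls and 5.96, 5.92 and 6.89 CPM after NaIO3 (log2 -0.47 ± 0.18, SE, or -0.85 with the GC correction). Oca2, which regulates melanosomal pH, was between 6.45 and 7.36 CPM in IF + PBS and between 3.64 and 5.41 CPM in IF + NaIO3. Pmel and Mlana, structural proteins of the melanosome, had log2 differences of -0.86 ± 0.28 and -0.85 ± 0.28 (SE), with overlap between the groups in both, and Pmel shares its position with Cdk2 and Dgka. Tyrp1 was between 15.2 and 31.9 CPM in the controls and between 12.9 and 22.0 CPM after NaIO3 (log2 -0.40 ± 0.26, SE).

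Promoters of 3 of these pigment and visual cycle genes are shown because the members differed together, and because many of them hold the letters CATGTG, the core of the M-box that the pigment cell factor MITF binds. The windows are again RefSeq's on GRCm38.p6, from 250 bases before to 50 after the start, 5′ to 3′ on the gene's strand, with CATGTG or its reverse complement CACATG in capitals. Tyr lies at chr7:87493463-87493762 on the minus strand, Slc24a5 at chr2:125067877-125068176 on the plus strand and Rpe65 at chr3:159598931-159599230 on the plus strand.
Tyr: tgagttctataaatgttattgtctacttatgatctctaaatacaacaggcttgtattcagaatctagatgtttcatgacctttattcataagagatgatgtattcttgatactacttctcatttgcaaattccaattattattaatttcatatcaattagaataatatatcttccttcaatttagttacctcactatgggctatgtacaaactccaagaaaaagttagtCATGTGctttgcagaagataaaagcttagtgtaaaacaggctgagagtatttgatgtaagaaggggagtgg
Slc24a5: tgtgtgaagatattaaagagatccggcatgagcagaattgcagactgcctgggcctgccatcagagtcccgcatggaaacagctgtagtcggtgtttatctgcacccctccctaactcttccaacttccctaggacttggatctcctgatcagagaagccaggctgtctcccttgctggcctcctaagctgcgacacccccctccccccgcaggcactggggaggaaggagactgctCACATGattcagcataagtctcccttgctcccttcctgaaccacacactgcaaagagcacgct
Rpe65: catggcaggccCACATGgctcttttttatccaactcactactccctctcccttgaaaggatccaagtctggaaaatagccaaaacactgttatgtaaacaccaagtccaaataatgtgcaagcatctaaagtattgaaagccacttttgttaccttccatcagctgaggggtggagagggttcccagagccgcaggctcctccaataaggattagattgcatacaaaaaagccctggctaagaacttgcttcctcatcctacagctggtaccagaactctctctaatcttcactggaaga
The match lay 21 bases before the start in Tyr, 13 before it in Slc24a5 and 239 before it in Rpe65. CATGTG was in 5 of 8 melanin genes with an entry (62.5%) and in 6 of 14 RPE genes (42.9%), against 14.1% of 27025 promoters, and in 0 of 20 immediate early genes. Of the RPE genes with a match, Rpe65, Rgr and Slc6a13 were lower at an unadjusted p under 0.05, and Rlbp1, Otx2 and Trpm1 were not. Lrat and Rdh5, which were lower at that level, held no match. Mitf itself had a log2 difference of 0.44, or 0.01 without IF + PBS replicate 1 where it was lowest, that did not pass the test (edgeR adjusted p = 0.634).

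Further genes were lower without overlap between the groups and were called without IF + PBS replicate 1. By the rule used here the 10 with the largest falls were Hipk4, Mfrp, Lrat, Phgdh, Trf, Islr, Rcor2, Ptgds, Hes5 and Tpbgl. Mfrp, a membrane protein of RPE and ciliary epithelium that is needed for normal eye growth, had 48.5, 61.0 and 54.6 CPM in IF + PBS and 25.6, 18.6 and 35.6 CPM in IF + NaIO3 (log2 -1.04 ± 0.20, SE). Reads of Mfrp may be shared with C1qtnf5, Rnf26 and Gm49380, which overlap it, and C1qtnf5, looked up for that reason, was higher (4.22, 2.67 and 5.80 CPM against 19.6, 9.34 and 9.16 CPM). Trf (chr9:103204001-103230444), which encodes the iron carrier transferrin, had 603, 473 and 574 CPM in the controls and 312, 168 and 321 CPM after NaIO3, 2.06-fold lower (log2 -1.04 ± 0.21, SE). Ptgds, a prostaglandin D2 synthase that also carries retinoids, was at 879, 1041 and 1133 CPM against 729, 391 and 579 CPM (log2 -0.84 ± 0.19, SE). In Mfrp, Trf and Ptgds, as in the visual cycle genes, IF + NaIO3 replicate 2 was the lowest library.

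Phgdh, the first enzyme of serine synthesis, had 30.8, 34.6 and 44.9 CPM in IF + PBS and 24.8, 13.0 and 21.5 CPM in IF + NaIO3 (log2 -0.89 ± 0.22, SE). Hes5, an effector of Notch signalling found in Müller glia and progenitors, had 21.0, 23.2 and 18.8 CPM against 14.1, 9.78 and 9.58 CPM (log2 -0.91 ± 0.18, SE). Hipk4, a protein kinase, was 2.69-fold lower, between 4.59 and 7.62 CPM in the controls and between 1.79 and 2.30 CPM after NaIO3. Rcor2, a corepressor, and Islr and Tpbgl, leucine-rich repeat proteins, had log2 differences of -0.82, -0.82 and -0.68 at levels between 4.49 and 24.9 CPM. Without IF + PBS replicate 1 the edgeR adjusted p values of these 10 genes were between 0.0333 and 0.0495, all close to the threshold, and with the GC correction in addition 0 of the 10 was called. Jag1, a Notch ligand chosen for mention after its values were seen, was higher, at 143, 91.9 and 102 CPM in IF + PBS and 156, 173 and 155 CPM in IF + NaIO3 (log2 0.53 ± 0.15, SE).

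Photoreceptor genes were not lower as a group in IF + NaIO3. The median log2 fold change was 0.09 over 21 rod phototransduction genes, 0.20 over 14 cone genes and 0.11 over 20 genes of the outer segment and cilium. At an unadjusted p under 0.05, 4, 3 and 6 of them were higher and 1, 1 and 0 were lower, where 8.47% and 6.72% of all genes were. With the GC correction 1, 3 and 5 were higher and 1, 0 and 0 were lower at that level, against 4.69% and 3.89% of all genes. Gnat1 had a log2 difference of -0.14 ± 0.07 (SE), and Crx, a transcription factor of all photoreceptors, one of 0.01 ± 0.09. Gngt1, the gamma subunit of rod transducin, was 626, 738 and 803 CPM in the controls and 1123, 1190 and 910 CPM after NaIO3 (log2 0.57 ± 0.12, SE), and with the GC correction its difference was 0.26. Pdc, which binds transducin, went from a difference of 0.42 to 0.09 with that correction. Rcvrn, the calcium sensor recoverin, was lower in each library, between 662 and 773 CPM against between 521 and 611 CPM (log2 -0.33 ± 0.10, SE).

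Opn1mw, the medium-wavelength cone opsin, was the cone gene with the firmest difference. It had 108, 103 and 95.7 CPM in IF + PBS and 150, 163 and 139 CPM in IF + NaIO3, so the groups were well apart, though reads may be shared with an overlapping gene. The log2 fold change was 0.56 ± 0.10 (SE), with an edgeR adjusted p of 0.211 on the 6 libraries and 0.0323 without IF + PBS replicate 1, and 0.59 with the GC correction (adjusted p = 0.133). Opn1sw, the short-wavelength opsin, had a difference of 0.21 ± 0.10, Gnat2, cone transducin, one of 0.32 ± 0.10, Gnb3, its beta subunit, one of -0.28 ± 0.10, which was -0.15 with the GC correction, and Arr3, cone arrestin, one of 0.01 ± 0.10 (log2 ± SE). Cngb3, a subunit of the cone channel, was between 26.9 and 28.7 CPM in the controls and between 35.7 and 44.8 CPM after NaIO3, and its log2 difference of 0.51 became 0.25 with the GC correction.

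Among outer segment genes Rp1 (chr1:3999557-4409241), a microtubule protein of the axoneme, was 1504, 950 and 1204 CPM in IF + PBS and 1765, 2600 and 2023 CPM in IF + NaIO3 (log2 0.81 ± 0.17, SE). Its edgeR adjusted p was 0.0323 without IF + PBS replicate 1, and with the GC correction the log2 difference was 0.54. Impg1 and Impg2, proteoglycans of the matrix around the outer segments, had differences of 0.55 ± 0.14 and 0.51 ± 0.14, and Cep290, a protein of the connecting cilium, one of 0.50 ± 0.12 (log2 ± SE). With the GC correction these were 0.42, 0.32 and 0.23. Prph2, a structural protein of the disc rim, had a difference of 0.18 before the correction and 0.29 after it. Gucy2f and Rgs9, which end the rod response, and Pde6c, the cone phosphodiesterase, were called higher only without IF + PBS replicate 1, a library in which they stood at 173, 307 and 80.2 CPM against between 45.3 and 147 CPM in the other controls. In AL + PBS, Gucy2f was between 195.5 and 230.3 CPM, Rgs9 between 321.5 and 378.8 CPM and Pde6c between 73.0 and 82.5 CPM. For all 3 genes IF + PBS replicate 1 lay nearer to these levels than the other IF + PBS libraries did.

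The 13 genes encoded in the mitochondrial genome were higher in IF + NaIO3, 12 of them at an unadjusted p under 0.05 (8.47% of all genes and 32.7% of those in the lowest GC decile were), with a median log2 fold change of 0.56, but with the GC correction mt-Co3 was level and, without IF + PBS replicate 1 as well, mt-Co3 (-0.20) and mt-Co1 (-0.04) were on the other side. They encode core subunits of the respiratory chain and ATP synthase. Their share of all counts was 3.86%, 5.14% and 5.04% in the IF + PBS libraries and 6.34%, 7.44% and 5.41% in the IF + NaIO3 libraries, a difference with p = 0.1 (exact two-sided permutation test, the smallest p possible here). These transcripts have a low GC content, with a median of 37.1% against 49.96% over all genes, and with the GC correction the median was 0.14 and 2 genes had an unadjusted p under 0.05, mt-Nd4l and mt-Nd5. mt-Nd4l, a subunit of complex I, had 283, 301 and 320 CPM in the controls and 540, 852 and 528 CPM after NaIO3 (log2 1.09 ± 0.17, SE; edgeR adjusted p = 0.174, and 0.0323 without IF + PBS replicate 1). It overlaps mt-Nd4, whose difference was 0.65 ± 0.15 (log2 ± SE), so reads of both may be divided between them. The smallest difference was that of mt-Co3, 0.31 ± 0.14 (log2 ± SE). The 25 tested genes of the respiratory chain encoded in the nucleus had a median of 0.04, with 2 higher and 0 lower at an unadjusted p under 0.05, a share close to the 8.47% of all genes, one of them Ndufs1 at 0.28 ± 0.10 (log2 ± SE).

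The markers of the ocular surface had the largest median difference of the 42 gene lists. Of 15 genes of the cornea and surface epithelium, 14 were higher, 9 at an unadjusted p under 0.05 (8.47% of all genes were), with a median log2 fold change of 2.34 and 2.30 with the GC correction. Krt5 (chr15:101707070-101712898), a keratin of basal epithelial cells, had 2.14, 7.29 and 5.42 CPM in IF + PBS and 54.0, 23.9 and 9.40 CPM in IF + NaIO3 (log2 2.56 ± 0.57, SE, edgeR adjusted p = 0.211). Krt14, its partner, was between 0.512 and 1.21 CPM against 7.25, 5.56 and 1.31 CPM, and Krt15 was at most 12.8 CPM against 83.1, 37.8 and 11.6 CPM. The difference was largest in IF + NaIO3 replicate 1 and smallest in replicate 3 for each of the 3 keratins. Krt12, which marks the corneal epithelium, was 9.44 CPM in IF + NaIO3 replicate 1 and between 0.413 and 1.43 CPM in the other 5 libraries. The summed level of the list was 363, 399 and 372 CPM in the controls and 594, 431 and 389 CPM after NaIO3, where Pax6, which retinal neurons also express, made up between 304 and 352 CPM. None of these 4 keratins was called with or without IF + PBS replicate 1, while without IF + NaIO3 replicate 3 edgeR called 11 genes, among them Krt7, Krt13, Krt14, Krt19 and Mal.

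Krt7, Muc20 and Trim29, which are expressed in surface epithelia, were among the 10 largest rises without IF + PBS replicate 1 and had few reads. With so few control reads they could pass the filter on low counts only through the IF + NaIO3 libraries, so their ratios and rank are a description. Krt7 had 7, 10 and 2 counts in the controls and 156, 145 and 40 counts after NaIO3, a ratio of 16.9 (95% exact interval of the counting error 10.7 to 28.4). Muc20 had 9 counts in all controls and 138 in the treated libraries, a ratio of 14.4 (7.39 to 32.2). Trim29 was between 0.186 and 0.608 CPM and between 0.896 and 3.34 CPM. Like the keratins above, these 3 genes were highest in IF + NaIO3 replicate 1 and lowest of the treated libraries in replicate 3. What part the amount of surface epithelium in each eye cup had in the other differences was not tested.

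Globin genes of red blood cells were also higher, while muscle genes overlapped between the groups. Hba-a1 and Hba-a2, which encode alpha globin, had 17.4, 11.7 and 15.3 CPM and 11.8, 6.41 and 10.2 CPM in IF + PBS, and 33.4, 26.8 and 20.9 CPM and 19.8, 18.3 and 14.6 CPM in IF + NaIO3. Both were called higher without IF + PBS replicate 1 (edgeR adjusted p = 0.0393 and 0.0427), and reads of these near-identical genes may be assigned to either. Hbb-bs and Hbb-bt, the beta globins, had log2 differences of 0.65 ± 0.16 and 0.56 ± 0.20 (SE), so that these 4 globins were higher without overlap, as 10.2% of all genes were. Of 7 tested red blood cell genes 6 were higher and 1 was lower. Of 28 skeletal muscle genes 23 were higher, 4 at an unadjusted p under 0.05 (8.47% of all genes were), and in 0 of the 28 were the groups apart. Their median of 0.72 (log2) became 0.36 without IF + PBS replicate 1. The summed level of the muscle list was 99.6, 286 and 216 CPM in the controls and 184, 285 and 539 CPM after NaIO3, so that the groups overlapped. Myh4, a myosin of fast fibres, had 1.98, 19.4 and 13.0 CPM against 17.1, 26.3 and 68.2 CPM. Of 22 lens crystallins only 8 had enough reads to be tested, with a median of -0.09.

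Beside Egr1, mt-Nd4l, the alpha globins and the 3 epithelial genes, the 10 largest rises without overlap were those of Zfp708, Zfp619 and Kbtbd3. Zfp708, a zinc finger gene, had 188, 0 and 4 counts in IF + PBS and 263, 332 and 234 counts in IF + NaIO3. Its call rested on the absence of replicate 1, the control with reads, and with the 6 libraries the edgeR adjusted p was 0.389. It overlaps Rslcan18 and Gm28557, and Gm28557 had the opposite pattern, at 0.928, 6.22 and 7.41 CPM in IF + PBS and between 1.76 and 1.96 CPM in IF + NaIO3. For Zfp708 the ratio of summed counts was 4.07 (95% exact interval of the counting error 3.47 to 4.78), and the fitted log2 fold change was 2.01 with IF + PBS replicate 1 and 6.94 without it, where it rests on 4 control counts. Hipk1 (chr3:103739815-103791563, overlapping Gm10964), a protein kinase, showed the opposite form, with 17.6, 97.9 and 101 CPM in the controls and 11.02, 16.9 and 22.9 CPM after NaIO3. IF + PBS replicate 1 stood among the treated libraries in Hipk1, and the log2 fold change was -2.09 with it and -2.56 without it (edgeR adjusted p = 0.212 and 0.00232). Zfp619 (log2 0.78 ± 0.26, SE) and Kbtbd3 (0.78 ± 0.21) were highest among the controls in replicate 1, at 7.87 and 16.4 CPM. Zfp292, a zinc finger gene chosen for mention after its values were seen, had 187, 127 and 134 CPM in IF + PBS and 224, 264 and 237 CPM in IF + NaIO3 (log2 0.70 ± 0.14, SE).

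Among genes of metabolism, Hk2, the hexokinase that photoreceptors use for aerobic glycolysis, was the only one of 28 glycolysis and hypoxia genes called without IF + PBS replicate 1 (edgeR adjusted p = 0.0323), where 0.999% of all genes were called higher and 0.271% lower. It had 442, 341 and 333 CPM in IF + PBS and 447, 558 and 589 CPM in IF + NaIO3, with replicate 1 of both groups nearly level (log2 0.52 ± 0.14, SE). In AL the same gene had a log2 fold change of -1.22 ± 0.27 (SE), and the difference between the diets had an edgeR adjusted p of 0.0951. The median of that list was 0.04. Bnip3, a mitophagy receptor, had a difference of 0.37 ± 0.10, and Gapdh, a glycolytic enzyme, one of 0.89 ± 0.27 (log2 ± SE), though its many processed copies can take its reads, with 297 CPM in IF + NaIO3 replicate 1 and 120 CPM in replicate 2. Of 23 genes of fat oxidation and ketone metabolism, 1 was higher and 3 were lower at an unadjusted p under 0.05 (8.47% and 6.72% of all genes were), with a median of 0.02. Ucp2, a mitochondrial uncoupling protein, was 34.8, 35.7 and 36.9 CPM in the controls and 26.3, 18.2 and 25.01 CPM after NaIO3 (log2 -0.63 ± 0.14, SE). Bdh1, which interconverts ketone bodies, had a difference of -0.32 ± 0.10. Ppargc1a, a coactivator of mitochondrial genes, had a difference of 0.35 ± 0.10 that was 0.14 with the GC correction. In the sterol list, 5 of 23 genes were higher and 2 were lower at an unadjusted p under 0.05 (8.47% and 6.72% of all genes), with a median of 0.17. With the GC correction 2 were higher and 1 was lower (4.69% and 3.89% of all genes), with a median of 0.08.

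Over 28 antioxidant genes the median difference was -0.04 (log2), with 1 higher and 4 lower at an unadjusted p under 0.05 (8.47% and 6.72% of all genes). The lower ones were Gstm1, Cat, Gpx3 and Mgst1, which detoxify electrophiles and peroxides, and the higher one was Nfe2l2, the NRF2 factor itself (log2 0.27 ± 0.11, SE). Cat, catalase, was 34.7, 42.2 and 39.9 CPM in IF + PBS and 32.9, 27.4 and 29.8 CPM in IF + NaIO3 (log2 -0.37 ± 0.12, SE). Gpx3, a secreted peroxidase, was called lower without IF + PBS replicate 1 (edgeR adjusted p = 0.0323), a library in which it had 57.0 CPM against 148 and 104 CPM in the other controls and between 52.7 and 71.4 CPM after NaIO3. Hmox1, haem oxygenase, had between 2.80 and 4.15 CPM in the controls and between 1.41 and 3.00 CPM after NaIO3. Of 24 genes of the integrated stress and unfolded protein responses, 4 were higher and 2 lower at an unadjusted p under 0.05 (8.47% and 6.72% of all genes), and the median was 0.01. Hspa5, the chaperone BiP of the endoplasmic reticulum, was 235, 198 and 253 CPM against 290, 365 and 289 CPM (log2 0.46 ± 0.12, SE), and Hsp90b1 had a difference of 0.42 ± 0.14, which with the GC correction were 0.32 and 0.26. Among 18 heat shock genes 4 were higher and 0 lower at that level (the same 8.47% and 6.72%), led by Hsp90aa1 at 0.45 ± 0.11 (log2 ± SE), with a median of 0.07.

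The medians of 7 glial and immune lists lay between -0.14 and 0.14 on the 6 libraries, against 0.00 over all genes. The median log2 fold change was -0.07 over 21 genes of Müller glia and astrocytes, 0.04 over 20 of microglia and macrophages, -0.14 over 17 of complement, -0.12 over 18 of antigen presentation, 0.14 over 20 interferon-stimulated genes, 0.03 over 10 cytokines and chemokines and -0.04 over 15 acute-phase genes. Without IF + PBS replicate 1 these medians were, in the same order, -0.10, -0.04, -0.24, -0.20, 0.08, -0.09 and 0.03. At an unadjusted p under 0.05, 3 acute-phase genes were higher and 0 lower (8.47% and 6.72% of all genes). In 4 of the antigen presentation genes all IF + NaIO3 libraries lay below all IF + PBS libraries, and in 1 they lay above (10.7% and 10.2% of all genes). Of the microglia genes 4 lay above and 1 below in this way, and of the interferon-stimulated genes 4 and 2. In these 7 lists, and in those of NADPH oxidase, cell death (median -0.03 over 17 genes) and lysosome genes (-0.09 over 25), 0 genes were called with or without IF + PBS replicate 1, where 0% of all genes were called with it and 0.999% higher and 0.271% lower without it, so that few calls would stand in lists of this size. Gfap, the intermediate filament of reactive glia, had 11.2, 14.0 and 16.0 CPM in IF + PBS and 10.7, 13.4 and 15.7 CPM in IF + NaIO3. The groups overlapped over their whole range, with a log2 difference of -0.04 ± 0.19 (SE). Csf1r, a receptor of microglia, had a difference of 0.00 ± 0.17, Tmem119 one of 0.03 ± 0.24, C1qa one of -0.26 ± 0.26, C1qb one of 0.04 ± 0.22 and C3 one of -0.28 ± 0.44 (log2 ± SE). P2ry12, a receptor of resting microglia, was 1.95, 1.92 and 2.36 CPM against 3.42, 5.01 and 3.07 CPM, a difference of 0.89 ± 0.29, or 0.61 with the GC correction. Cd74, the invariant chain of MHC class II, was between 5.21 and 9.67 CPM against between 3.80 and 4.52 CPM (log2 -0.79 ± 0.26, SE). Lymphocyte and neutrophil genes were hardly counted, with 2 tested genes in each list and summed levels of at most 4.39 CPM in these 6 libraries. The list of NADPH oxidase genes had a median of 0.32, or 0.13 without IF + PBS replicate 1, and its genes Cybb and Cyba had differences of 0.56 ± 0.48 and -0.59 ± 0.21 (log2 ± SE).

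**Figure D4:**
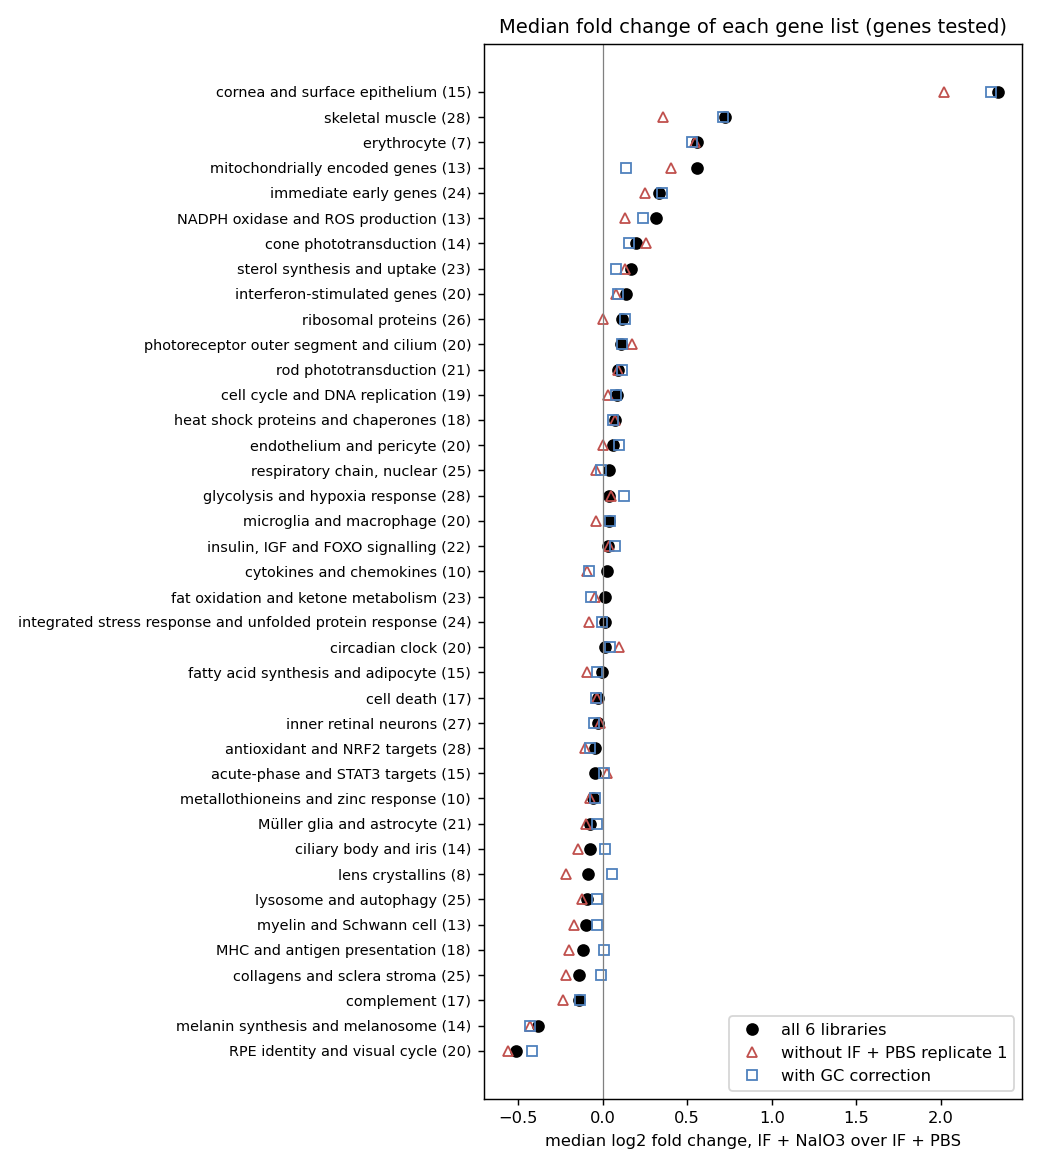
Median log2 fold change of IF + NaIO3 over IF + PBS (x axis) for each gene list with at least 5 tested genes (rows, number tested in brackets), with all 6 libraries (black), without IF + PBS replicate 1 (red) and with the GC trend removed (blue). Surface epithelium stands highest at 2.34 and RPE lowest at -0.51 with all 6 libraries, while the glial and immune lists named in the text by their medians lie between -0.24 and 0.14 in all 3 colours.

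Stroma, vessels and inner retina showed a few single genes. Of 25 collagen and sclera genes, 1 was higher and 4 were lower at an unadjusted p under 0.05 (8.47% and 6.72% of all genes), with a median of -0.14. With the GC correction 3 were higher and 5 were lower (4.69% and 3.89% of all genes), and the median was -0.01. Col4a2, a chain of the basement membrane collagen, had 31.3, 36.5 and 37.5 CPM in IF + PBS and 20.0, 23.6 and 27.3 CPM in IF + NaIO3 (log2 -0.57 ± 0.14, SE), and was called lower without IF + PBS replicate 1 (edgeR adjusted p = 0.0446). Col6a1 and Col9a1 had differences of -0.56 ± 0.19 and -0.39 ± 0.11, while Dcn, the proteoglycan decorin, had one of 0.72 ± 0.19 (log2 ± SE). With the GC correction the differences of Col4a2 and Dcn were -0.35 and 0.44. Over 20 endothelial and pericyte genes the median was 0.06, and the one with the lowest p was Acta2, smooth muscle actin, between 9.52 and 12.4 CPM against between 5.34 and 8.29 CPM. Genes of inner retinal neurons had a median of -0.03 over 27 genes. For the clock, insulin signalling, cell cycle, ribosomal protein, fatty acid synthesis, metallothionein, myelin and ciliary body lists, the medians lay between -0.10 and 0.12. Of 10 metallothionein and zinc response genes, 2 were higher and 0 lower at an unadjusted p under 0.05 (8.47% and 6.72% of all genes). Mt1, a metallothionein that binds zinc and copper, was called lower without IF + PBS replicate 1 (edgeR adjusted p = 0.0463), as 0.271% of all genes were. It had a log2 difference of -0.38 ± 0.21 (SE) on the 6 libraries. Slc39a10, a zinc transporter, had one of 0.40 ± 0.12, or 0.11 with the GC correction.

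The response to NaIO3 differed between the diets for 5 of 15970 genes (0.0313%) in edgeR's test of the interaction over the 12 libraries, at an adjusted p under 0.05. Lcn2, an iron-binding acute-phase protein of reactive glia, had 5.70, 7.45 and 4.34 CPM in IF + PBS and 4.55, 5.10 and 3.62 CPM in IF + NaIO3, a log2 fold change of -0.40 ± 0.25 (SE), against 3.90 ± 0.33 between AL + NaIO3 and AL + PBS. The values for Edn2, an endothelin made by injured photoreceptors, were -0.16 ± 0.32 in IF and 4.36 ± 0.44 in AL, and those for Cebpd, a transcription factor of acute inflammation, were 0.40 ± 0.18 and 2.84 ± 0.23. The fourth, Insig1, which holds back sterol synthesis, had 0.09 ± 0.09 in IF and -1.07 ± 0.12 in AL. The fifth was the predicted gene Gm42669, with -0.18 ± 0.17 and -3.27 ± 0.39, which overlaps Btbd8, Glmn and 1700028K03Rik. The adjusted p values of these interactions were between 0.002 and 0.0212.

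A further 4 genes chosen for the AL diet did not pass the test of the difference between the diets, with edgeR adjusted p values between 0.0825 and 0.563, although H2-Q4 passed without IF + PBS replicate 1 (edgeR adjusted p = 0.0349). H2-Q4, an MHC class I gene, had log2 fold changes of 0.52 ± 0.25 in IF and 2.33 ± 0.20 in AL, and Pon1, a paraoxonase, had -0.78 ± 0.31 and -1.34 ± 0.16 (SE). Ifit3, an interferon-stimulated gene, had -0.11 ± 0.15 and 0.71 ± 0.37, and Bax, a cell death gene, had -0.13 ± 0.10, or 0.12 with the GC correction, and 0.39 ± 0.12. Neither Ifit3 nor Bax passed the test on either diet. Gfap, Cybb, Hmox1 and Hipk1 were also chosen for the AL diet. Their log2 fold changes were -0.04, 0.56, -0.64 and -2.09 in IF, and 3.34, 2.85, 1.70 and 0.00 in AL. The difference between the diets did not pass for them (edgeR adjusted p = 0.0652, 0.389, 0.232 and 0.283), although Hipk1 passed without IF + PBS replicate 1 (edgeR adjusted p = 0.00815). Over the 13 tested genes chosen for the AL diet the median IF value was -0.13, and Aif1, a marker of microglia, had too few reads to be tested.

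The visual cycle genes Lrat, Rpe65 and Rgr had negative fold changes on both diets. Best1, which had few reads, had log2 values of -0.16 ± 0.56 in IF and 0.62 ± 0.47 in AL (SE). Its difference between the diets did not pass (edgeR adjusted p = 0.672). Lrat had -1.01 ± 0.21 in IF and -1.19 ± 0.42 in AL, Rpe65 -0.60 and -1.29, and Rgr -0.83 and -1.45 (log2), and the RPE list had medians of -0.51 and -0.25. Over the melanin list the medians were -0.38 in IF and 1.10 in AL, where AL + NaIO3 replicate 3 had a summed level of 2899 CPM against 368 and 300 CPM in the other AL + NaIO3 libraries. Rod genes had medians of 0.09 and -0.56, microglia genes 0.04 and 2.23, complement genes -0.14 and 1.84, acute-phase genes -0.04 and 2.51, and Müller glia genes -0.07 and 1.09. The AL + NaIO3 libraries were uneven here too, with a summed microglia level of 516, 356 and 2228 CPM, against between 157 and 190 CPM in the 6 IF libraries. Their summed rod level was 77290, 45970 and 24260 CPM, against between 68940 and 72100 CPM in AL + PBS. The immediate early genes had medians of 0.33 in IF and 0.27 in AL, where Klf4, Fosb and Junb had log2 differences of 1.35, 1.05 and 0.69. Egr1, Nr4a1 and Fos had means of 99.7, 66.5 and 50.2 CPM in AL + PBS. These were above their means in IF + PBS (23.7, 31.4 and 22.55 CPM) and in IF + NaIO3 (80.9, 57.8 and 42.1 CPM). The log2 fold changes of these genes in AL were -0.20, -0.42 and 0.03, but the difference between the diets did not pass for them (edgeR adjusted p = 0.206, 0.232 and 0.374). Nor did it pass for Lrat, Rpe65 or Slc24a5 (edgeR adjusted p = 0.894, 0.42 and 0.153).

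**Figure D5:**
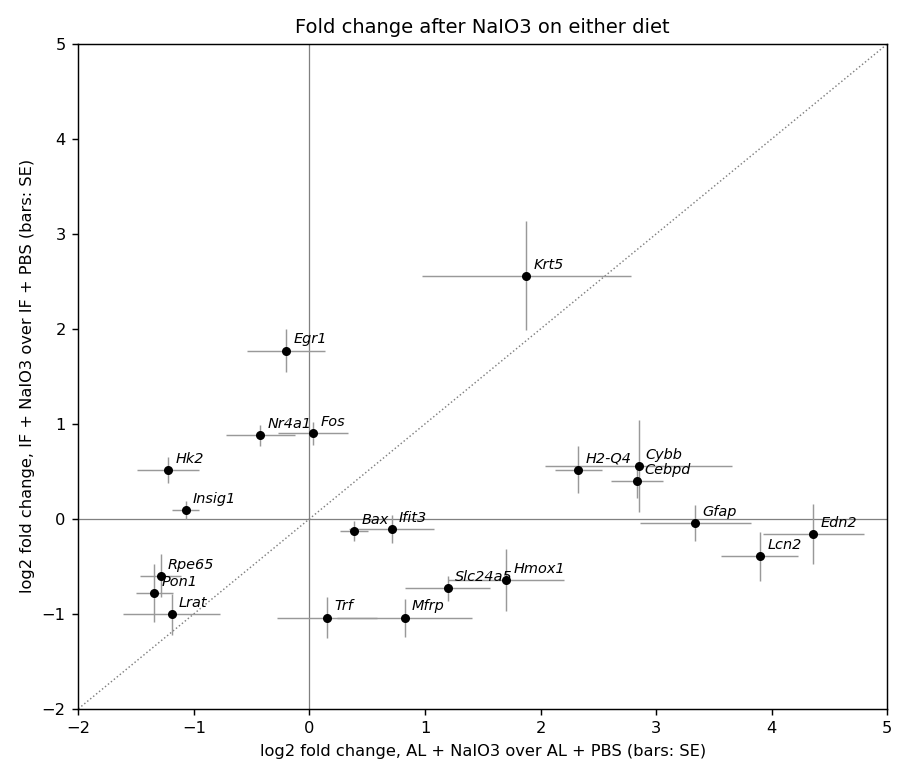
Log2 fold change after NaIO3 in fasted mice (y axis, IF + NaIO3 over IF + PBS) and in mice fed ad libitum (x axis, AL + NaIO3 over AL + PBS) for 21 genes named in the text, with bars for the SE of each fit and a dotted line where both are equal. Lcn2, Edn2 and Cebpd lie near 0 for IF and between 2.84 and 4.36 for AL, while Lrat and Rpe65 are negative on both axes.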

How the data were processed

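Poly-A RNA of eye cups was sequenced from libraries made with a stranded kit. The study gives a sample size of 3 for RNA-seq without saying there that each library was 1 mouse, so p-values measure the spread between these samples, which may in part be technical. Per the submitters' processing notes the tools were HISAT2, StringTie, DESeq2 and edgeR and the build was GRCm 39, whereas the gene positions in the deposited table are those of GRCm38, which are printed here. The counter and its strand setting were not given in the sources used here. The authors deposited raw read counts per gene, and FPKM values (scaled to transcript length and depth) that served only to compare levels between genes. The authors' table of fold changes between IF + NaIO3 and AL + NaIO3 was not used. 0 sample columns were unmatched, 3003 of 21930 genes had 0 counts, and 31 symbols occur more than once.

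Counts were filtered with filterByExpr, scaled by TMM and tested with edgeR 4.0.16 (quasi-likelihood, R 4.3.3, Benjamini-Hochberg), on the 6 libraries and without IF + PBS replicate 1. Called genes had an adjusted p under 0.05 and at least a 1.5-fold difference. The scripts were tested on simulated data. The members and the 42 lists were chosen with earlier results of these data known. Named were the 5 genes with the lowest p, the 10 largest rises and 10 largest falls among calls without IF + PBS replicate 1 that did not overlap over 6 libraries and had a mean of at least 1 CPM (predicted genes left out), the leading and defining members of each list, and the genes named for the AL diet. Alternatives were DESeq2 1.42.0, limma 3.58.1 with sample quality weights, upper quartile scaling, other filters (none, or 10 counts or more per library), a fit over the 4 groups, a replicate block, leaving out each library, and a GC correction by loess on GRCm39 transcripts that was added after seeing the data. Depth covers counting error only, and intervals are exact at 95%. Some members of the lists enter the counts and medians but are not reported by name here.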

Additional observations from a re-analysis of the deposited data

Results flagged for a closer look

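For 5 genes the response to NaIO3 differed between the diets by edgeR's test of the interaction over 12 libraries. The differences are the IF response minus the AL response on the log2 scale. They were -4.28 ± 0.41 for Lcn2, -4.50 ± 0.51 for Edn2 and -2.43 ± 0.28 for Cebpd (± SE), which were higher after NaIO3 in AL and had IF values of -0.40, -0.16 and 0.40. For Insig1 the difference was 1.17 ± 0.15 and for the predicted gene Gm42669 it was 3.10 ± 0.43, both lower after NaIO3 in AL. Without IF + PBS replicate 1 the edgeR adjusted p values of these 5 interactions were between 0.00658 and 0.0431. Cebpd overlaps Spidr and Gm42669 overlaps Btbd8, so their reads may be shared. The cause of the differences was not tested.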

How the results depend on the processing

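The count of 0 called genes on the 6 libraries became 80 with DESeq2 on 18272 genes (its own filter in place of the one used here), 2 without a filter on low counts, 7 with limma's sample quality weights and 1 with the GC correction, and between 0 and 197 when one library was left out. It stayed at 0 with upper quartile scaling, the stricter filter, a fit of the 4 groups and no fold threshold. The count of 197 without IF + PBS replicate 1 became 318 with DESeq2 on 18093 genes, where edgeR on the same genes gave 286, 2 in the fit of the 4 groups, 6 with the GC correction and 458 with no fold threshold, and between 4 and 417 when a further library was left out. The 5 interactions became 11 without IF + PBS replicate 1 and 213 with DESeq2 on 18927 genes. In these 3 counts the tool and the filter changed together. With the replicate block 0 genes were called on the 6 libraries and 8 for the interaction. Libraries with the same number shared only that number, since their deviations correlated at -0.12, 0.03 and -0.03. Some named genes, none of them called on the 6 libraries, changed sign under some settings. With the GC correction they were Gfap (0.10), Bax (0.12) and mt-Co3 (-6.9e-05), and with that correction and without IF + PBS replicate 1 they were Edn2 (0.21), Gfap (0.0077), Bax (0.13), mt-Co1 (-0.042), mt-Co3 (-0.20) and C1qb (-0.040). With limma's sample quality weights they were Edn2 (0.16), Cx3cr1 (-0.062) and Tmem119 (-0.087), with upper quartile scaling Crx (-0.00049) and Csf1r (-0.011), and in the fit of the 4 groups Csf1r (-0.0022). With one library left out in turn, the log2 differences ranged from -0.54 to 0.021 for Csf3r, -0.38 to 0.0032 for Edn2, -0.20 to 0.0096 for Ifit3, -0.19 to 0.088 for Gfap, -0.52 to 0.14 for Best1, -0.070 to 0.080 for Arr3, -0.062 to 0.054 for Crx, -0.69 (without IF + NaIO3 replicate 1) to 2.55 for Krt12, -0.11 to 0.22 for Cx3cr1, -0.094 to 0.15 for Csf1r, -0.039 to 0.18 for Tmem119, -0.67 to 0.0073 for C3 and -0.12 to 0.23 for C1qb. The cause was not tested. With 3 libraries per group, which differences passed depended on IF + PBS replicate 1 and on other single libraries, and genes under a mean of 1 CPM rest on few reads.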
